A study of Mus musculus with 95 samples.

Results

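The 10 genes described here encode folding proteins of the endoplasmic reticulum (ER) and were followed through 4 mouse tissues: Hspa5, Hsp90b1, Pdia4, Pdia6, Calr, Dnajb11, Sdf2l1, Manf, Creld2 and Hyou1. They were taken by symbol from the table of read counts, where they are 10 of 55401 genes, and all 10 passed the filter on low counts in each tissue. Polyadenylated RNA had been sequenced from the cortex, the kidney, the liver and the white adipose tissue (WAT) of C57BL/6J mice, the common inbred laboratory strain. TLS animals, whose treatment label reads Stim, were sampled after 3 months of a torpor-like state at an age of 205 days, control animals at 205 days, and time-0 (T0) animals at 122 days. With 8 animals in a group (4 F and 4 M by label) there were 24 libraries per tissue, but 23 in WAT, since that of control 9BA4 was not analysed here. The stimulation that produced the torpor-like state, what the control animals received and any allele carried by the animals are not given in the sources used here.

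Proteins bound for the cell surface, for secretion or for most organelles of the secretory pathway enter the ER unfolded and are folded there by chaperones. Hspa5 (BiP), an Hsp70 of the ER lumen, binds exposed hydrophobic stretches in cycles driven by ATP, and Dnajb11, Sdf2l1, Hyou1 and Manf act on that cycle. Hsp90b1 (GRP94) is the Hsp90 of the ER, Pdia4, Pdia6 and Creld2 are disulfide isomerases or relatives of them, and Calr (calreticulin) is a calcium-binding lectin that holds glycoproteins. When unfolded protein accumulates, the sensors Atf6, Ern1 (IRE1) and Eif2ak3 (PERK) start the unfolded protein response, in which cleaved Atf6 and spliced Xbp1 raise transcription of these chaperone genes. Liver, which secretes most plasma proteins, is rich in ER.

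Cleaved Atf6 is known to act through the ER stress element, CCAAT, 9 bases of any kind, and CCACG, and copies of it are shown here as a description. Since Atf6 is known to raise transcription of these chaperone genes, nothing is read from how many of their windows hold the element. RefSeq promoter windows of build GRCm38.p6 were matched for 8 of the 10 genes, and none was matched for Manf and Hyou1. Within the 250 bases before the start site, on either strand, 5 of the 8 windows held the full element (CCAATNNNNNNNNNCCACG), which occurs in 37 of 32851 windows of that length (0.113%). The sequences below run 5′ to 3′ on the gene's strand, with both ends of each element in capitals. Elements on the opposite strand read CGTGG, 9 bases, ATTGG. They come from chr2:34772020-34772048 (Hspa5), chr12:17266486-17266514 (Pdia6), chr8:84847070-84847098, minus strand (Calr), chr15:88819515-88819543 (Creld2) and chr10:86705521-86705668, minus strand (Hsp90b1, with 2 elements in 148 bases).
Hspa5: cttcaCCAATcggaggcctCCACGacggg
Pdia6: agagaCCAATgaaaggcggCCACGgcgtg
Calr: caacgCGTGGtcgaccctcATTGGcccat
Creld2: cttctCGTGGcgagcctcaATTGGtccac
Hsp90b1: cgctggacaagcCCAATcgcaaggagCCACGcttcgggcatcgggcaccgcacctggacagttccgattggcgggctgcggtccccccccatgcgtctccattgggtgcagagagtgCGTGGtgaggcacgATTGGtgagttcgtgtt

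The elements ended 47 bases (Hspa5), 80 bases (Pdia6), 144 bases (Calr), 108 bases (Creld2), and 194 and 89 bases (Hsp90b1) before the RefSeq start site. GENCODE starts Hspa5 further upstream, at chr2:34771970, so its element (chr2:34772025-34772043) lies inside the GENCODE gene. Those of the other genes lie before their GENCODE starts as well. No full element was found in these windows of Pdia4, Dnajb11 and Sdf2l1, which says only that the letters are not within those bases. The letters CCACG alone, which the full element contains, were in 6 of 8 windows and in 28.3% of all windows. The shorter ERSE-II (ATTGG, 1 base of any kind, CCACG) was in none of the 8 and in 0.0304% of all, and the core of the unfolded protein response element (TGACGTG) was in the Hspa5 window and in 1.65% of all. The 37 windows with the full element belonged to 35 symbols. Besides the 5 members, these included Canx, Dnajc3, Ero1b, Derl3, Syvn1 and Alg12 from the lists of other ER genes, and Acacb from the list of fatty acid synthesis genes.

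In GENCODE vM21 (build GRCm38) all 10 genes are protein coding. The Hspa5 group lies at chr2:34771970-34777547 (Hspa5), chr16:22857845-22879634 (Dnajb11), chr16:17130138-17132383 (Sdf2l1), chr9:44379490-44392369 (Hyou1) and chr9:106838312-106891979 (Manf). Hsp90b1 lies at chr10:86690209-86705509, and Calr at chr8:84841850-84846934. The disulfide isomerase group lies at chr6:47796141-47813430 (Pdia4), chr12:17266545-17284770 (Pdia6) and chr15:88819646-88826683 (Creld2). Exons of Hsp90b1 (632 bases), Manf (326 bases), Pdia6 (50 bases) and Pdia4 (14 bases) overlap exons of other genes, and the sources used here do not say whether counting used strand, so their counts may hold some reads of those genes.

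Libraries held 14299369 to 22962145 counted reads in cortex, 15881766 to 29089492 in WAT, 8217875 to 28337864 in kidney and 4031533 to 29269511 in liver. Expression is given as counts-per-million (CPM), a read count relative to its library's total. Summed marker genes of each labelled tissue were high in that tissue (medians of the 3 groups 11353 to 13259 CPM in cortex, 30644 to 32200 in WAT, 25652 to 36873 in kidney and 64525 to 88989 in liver), and the F or M label fitted the sex-linked genes in 95 of 95 libraries. All libraries carry 1 batch label. The tissues were analysed whole, so fewer cells of a type and less RNA per cell cannot be told apart. TLS and control animals were older than T0 animals, so age and the 3 months between samplings cannot be told apart either. A library is named below by its group and animal code.

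On the scale used here, the liver of the control animals had the highest level of each of the 10 genes and the cortex the lowest of 9. Levels across tissues are CPM after TMM scaling over all 95 libraries, and the order depends on it. Without TMM the control means of Pdia6 were 130 CPM in liver, 135 in kidney and 178 in WAT. Liver was also below kidney for Dnajb11 (69.7 and 94.9 CPM), Calr (834 and 844), Creld2 (33.7 and 37.6) and Hyou1 (88.1 and 104). For Hyou1 the cortex mean was then the highest of all tissues, 111 CPM, and so above liver. The liver mean stayed the highest for Hspa5, Hsp90b1, Pdia4, Sdf2l1 and Manf. With the scaling, Hspa5 had a median of 151 CPM in cortex (124 to 207), 361 in kidney (338 to 567), 874 in liver (643 to 1305) and 286 in WAT (234 to 337). The liver range lay above that of every other tissue, and the lowest kidney library stood just above the highest WAT library. Calr had medians of 284 CPM in cortex, 402 in WAT, 715 in kidney and 1535 in liver. The exception to the order was Hyou1, the exchange factor of Hspa5, which was lowest in WAT (median 53.8 CPM, 48.2 to 66.9) and higher in cortex (88.3 CPM, 74.2 to 102).

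These tissue differences were tested with the same scaling in 1 edgeR quasi-likelihood fit over all libraries. Benjamini-Hochberg (BH) adjustment was over all genes, and a gene was called at an adjusted p below 0.05. Cortex was below liver for 10 of 10 members (82.6% of all genes were called in that comparison), with a median log2 difference of -2.45. Liver was above WAT for 10 of 10 (69.3% of all genes), with a median of 1.65. Liver was above kidney for 10 of 10 (62.2%), the kidney minus liver median being -1.06. Cortex was below kidney for 8 of 10 (78.6%), and Sdf2l1 (adjusted p = 0.112) and Hyou1 (adjusted p = 0.547) were not called in this edgeR fit. Cortex against WAT gave 9 of 10 calls (75.6%), 8 of them lower in cortex and Hyou1 higher by 0.69 ± 0.21 (log2, SE; adjusted p = 0.00274). Kidney was above WAT for 7 of 10 (61.8%), and Pdia4, Pdia6 and Sdf2l1 were not called. Most genes of any kind differ between these tissues, so nothing is read from the member counts themselves. The widest gap was that of Pdia4 between cortex and liver, 7.89-fold.

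**Figure D1:**
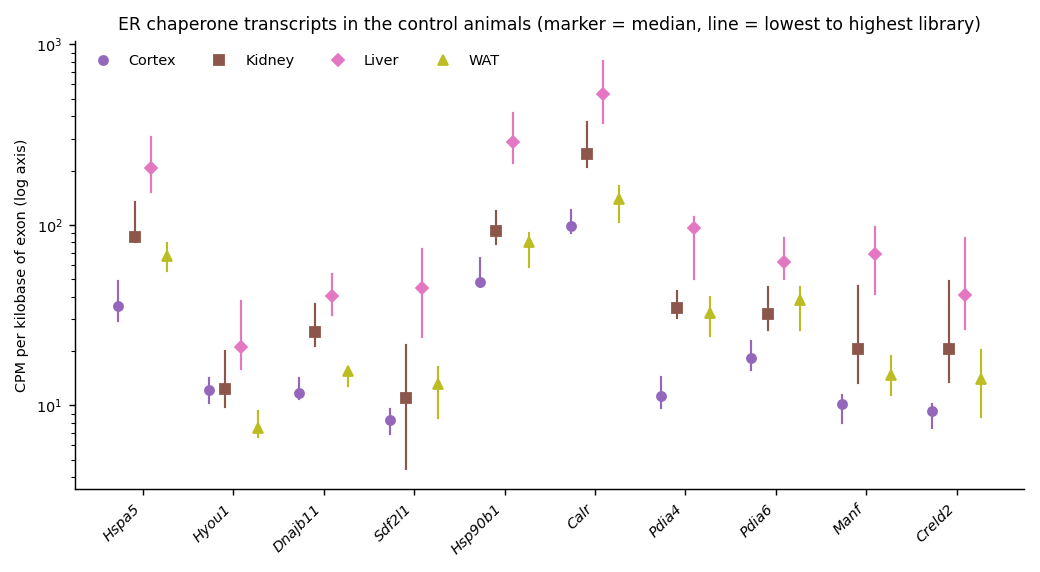
Level of each gene in control animals, in CPM per kilobase of exon on a log axis, by tissue, after TMM scaling over all libraries. Markers are medians, and lines run from the lowest to the highest library (8 libraries per tissue, 7 in WAT). Calr is the top gene in every tissue, and the liver markers lie highest for each gene on this scale.

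Per kilobase of exon, Calr was the most abundant of the 10 in every tissue, with medians of 98.6 CPM per kilobase in cortex, 140 in WAT, 248 in kidney and 533 in liver. Hsp90b1 and Hspa5 followed in that order in each tissue, at 289 and 207 CPM per kilobase in liver. The lowest gene was Sdf2l1 in cortex (8.24) and kidney (10.99), and Hyou1 in liver (21.1) and WAT (7.45). The spread from the top to the bottom gene was 11.95-fold in cortex, 18.8-fold in WAT, 22.6-fold in kidney and 25.3-fold in liver. Sdf2l1 moved up the order in liver, to the seventh place, above Creld2, Dnajb11 and Hyou1.

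The first comparison asked what 3 months of TLS changed against control animals of the same age. None of the 10 genes was called in any tissue, and the 40 estimates were split, 25 above and 15 below 0. From here on, CPM values are TMM scaled within a tissue. In cortex Hspa5 ranged from 158 to 253 CPM in controls (median 192) and from 153 to 254 in TLS animals (median 198). In liver it ranged from 353 to 738 (median 502) in controls and from 218 to 707 (median 389) in TLS animals. The groups overlapped in both tissues, and across the 10 genes and 4 tissues no pair of groups had ranges that stood apart. How often ranges stand apart over all genes was not worked out, so nothing is read from this.

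**Figure D2:**
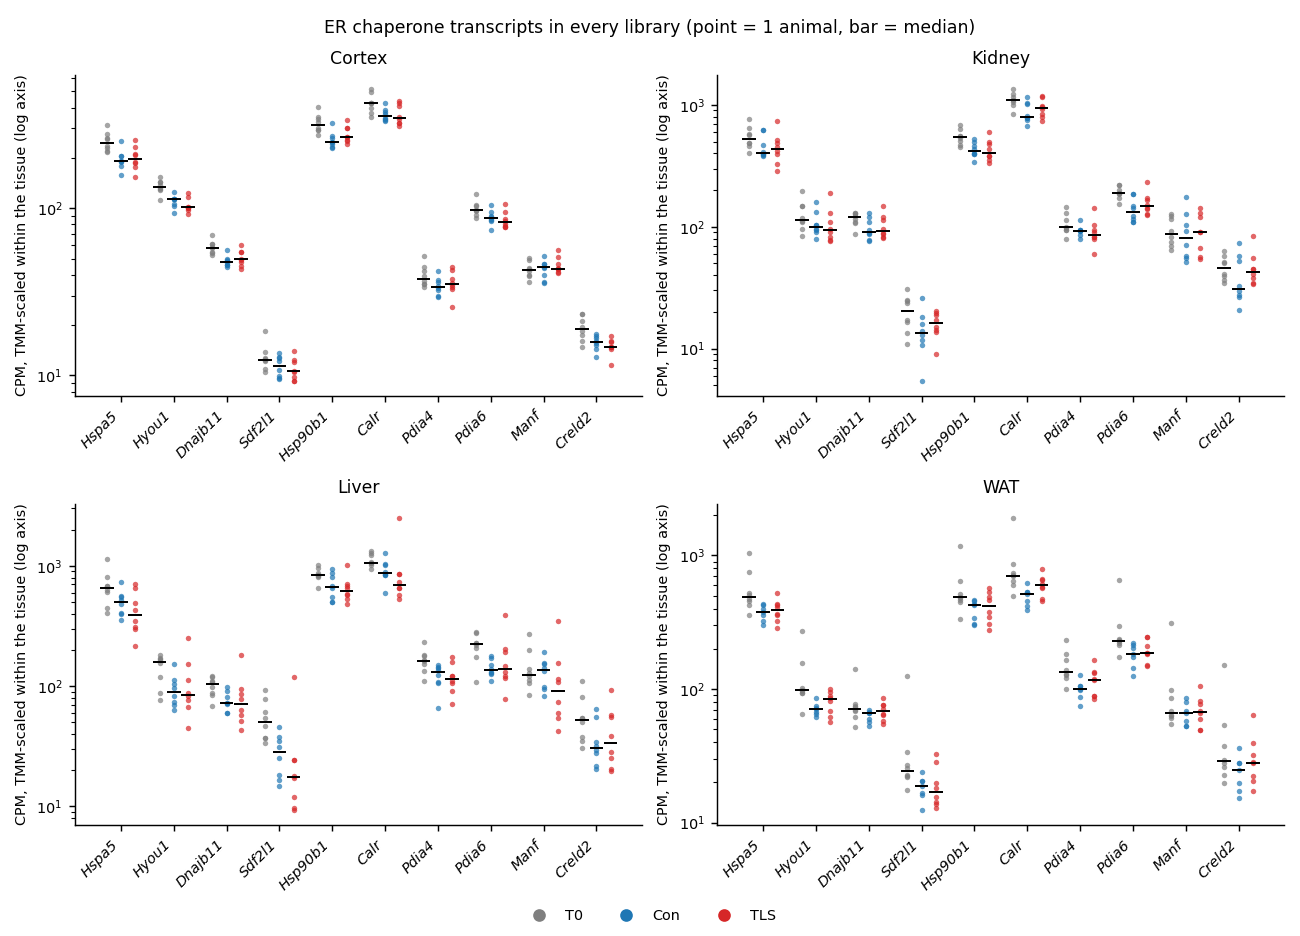
CPM of each gene in every library (log axis), one panel per tissue, with time-0, control and TLS libraries side by side and group medians as bars. In every panel the ranges of the 3 groups overlap, and single libraries lie far above their group in liver and WAT.

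By edgeR with BH adjustment, 0 of 10 members were called for TLS against control in cortex (5.41% of all genes tested were called), kidney (0.231%), liver (1.95%) and WAT (0.00596%). None had an unadjusted p below 0.05, DESeq2 also called 0 in each tissue, and the lowest adjusted p was 0.372 (Hsp90b1 in cortex). Median log2 differences over the members were 0.01 in cortex, 0.12 in WAT, 0.05 in kidney and -0.04 in liver, beside 0.00, 0.04, 0.01 and 0.08 over all genes tested. The precision differed between tissues. In cortex the 95% intervals of all 10 lay between -0.28 and 0.26 on the log2 scale, in kidney between -0.43 and 0.67, in liver between -0.85 and 0.87, and in WAT between -0.67 and 1.13. Changes inside a gene's interval are not excluded by these data. The precision was lowest for Creld2 in WAT (0.35 ± 0.38) and Sdf2l1 in liver (-0.08 ± 0.38).

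The master chaperone Hspa5 differed by 0.03 ± 0.08 (log2, SE) between TLS and control cortex, 0.06 ± 0.19 in WAT, -0.02 ± 0.17 in kidney and -0.23 ± 0.24 in liver. Hsp90b1 gave 0.11 ± 0.07, 0.11 ± 0.22, 0.00 ± 0.12 and -0.08 ± 0.18 in the same order. Calr gave 0.00 ± 0.08, 0.28 ± 0.22, 0.11 ± 0.11 and -0.05 ± 0.23. All 10 estimates were above 0 in WAT, none of them called. Whether the TLS difference varied between the tissues was tested in the joint edgeR fit with BH adjustment, which called 0 of 10 members (4.39% of all genes). The adjusted p ran from 0.791 (Calr) to 1 (Dnajb11). The unadjusted p was lowest for Calr (0.575), so none was below 0.05, and DESeq2 was not run for this test.

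For control against T0 animals most calls were in the cortex. Control animals had lower levels than T0 animals for 6 members, Hspa5, Hsp90b1, Dnajb11, Hyou1, Creld2 and Calr, the largest drop being 21.8% for Hspa5 and the smallest 14.7% for Calr in the fitted values (edgeR, BH). Hspa5 ranged from 217 to 316 CPM in T0 cortex (median 247), against 158 to 253 in controls (median 192), and 7 of 8 control libraries lay below every T0 library. Its log2 difference was -0.36 ± 0.08 (adjusted p = 0.00182). Hsp90b1 ranged from 276 to 401 CPM in T0 (median 315) and from 230 to 324 in controls (median 248), again with 7 of 8 controls below the lowest T0 library. Its difference was -0.33 ± 0.07 (adjusted p = 0.00193).

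The partners of Hspa5 were split. Dnajb11, the J-domain protein that hands substrates to it, ranged from 52.7 to 68.7 CPM in T0 (median 58.1) and from 44.6 to 56.3 in controls (median 47.6). It fell by 0.27 ± 0.06 (adjusted p = 0.00202, edgeR with BH), with 7 of 8 controls below every T0 library. Hyou1 fell by 0.28 ± 0.06 (adjusted p = 0.00229), from 112 to 154 CPM in T0 (median 134) to 93.6 to 125 in controls (median 114). Sdf2l1, a partner of Dnajb11, had medians of 12.4 and 11.4 CPM and a difference of -0.17 ± 0.11, which was not called. Manf, which binds Hspa5 and is also secreted, was the only one whose estimate was not below 0 (0.01 ± 0.08; medians of 42.8 CPM in T0 and 44.4 in controls).

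Among the disulfide isomerases Creld2 fell by 0.29 ± 0.09 (adjusted p = 0.0260, edgeR with BH), from a median of 18.9 CPM (14.9 to 23.4) to 15.8 (13.0 to 17.7). Pdia6 had -0.18 ± 0.07 at an adjusted p of 0.0501, just above the threshold, and Pdia4 -0.21 ± 0.09 (adjusted p = 0.0976). The lectin Calr fell by 0.23 ± 0.08 (adjusted p = 0.0351), from a median of 426 CPM (350 to 515) to 357 (330 to 425), and 8 of 8 controls lay below the T0 median. In this cortex comparison 21.2% of all genes were called and 10.5% were called lower, beside 6 of 10 members lower. The median over the members was -0.25, and over all genes 0.00. DESeq2 called 7, adding Pdia6 (adjusted p = 0.0478).

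**Figure D3:**
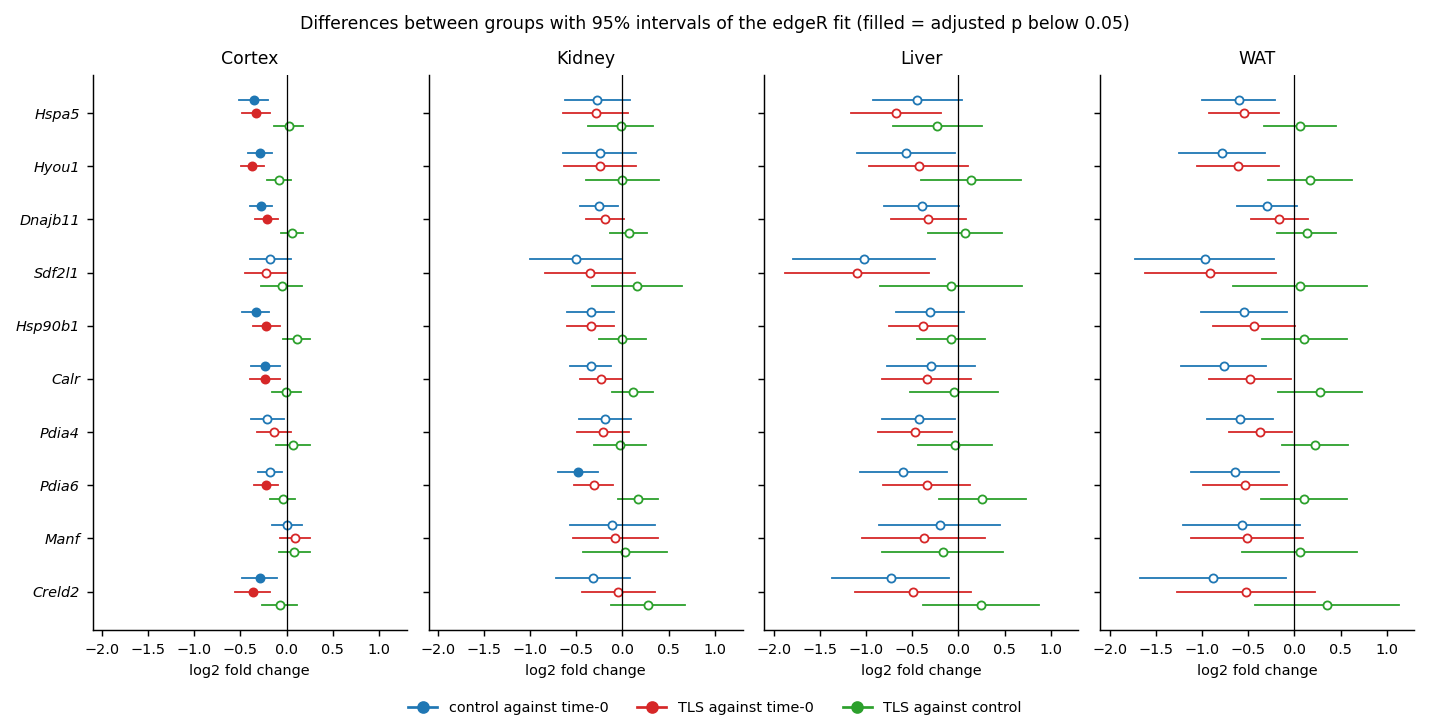
Log2 differences with 95% intervals from the edgeR fits for each gene in 4 tissues, for TLS against control, control against time-0 and TLS against time-0; filled points are called at an adjusted p below 0.05. Filled points are in the cortex panels of the comparisons with time-0, with 1 more, Pdia6, in the kidney panel of control against time-0.

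Hspa5, Hsp90b1, Dnajb11 and Hyou1 were called in cortex whichever of the 24 libraries was left out. Calr was lost without any one of control 5A66, 983B, 9916, A367 or D215 or of T0_3, T0_6, T0_7 or T0_8 (adjusted p up to 0.0873, edgeR with BH). Creld2 was lost without control 9916 or D215, or without T0_1, T0_3 or T0_6 (up to 0.0656). Pdia6 was called without control 9BA4 or A123, TLS animal B23B, T0_1 or T0_2 (down to 0.0203). The number called lay between 4 and 7 over these fits, 4 without control 9916 or D215 or without T0_3 or T0_6. With libraries of F animals only it was 3, and Hsp90b1 (adjusted p = 0.126, edgeR with BH), Dnajb11 (0.0696) and Calr (0.294) were lost. With those of M animals only it was 5, without Hyou1 (0.0777) and Creld2 (0.645) and with Pdia6 (0.0436). Only Hspa5 was called in both of these fits. They hold 4 animals per group, and their shares of all genes called are not given here.

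TLS animals compared with the same T0 libraries gave 7 lower members in cortex. Hyou1 fell most, by 0.37 ± 0.06 (adjusted p = 5.76e-05, edgeR with BH), to a median of 101 CPM (92.8 to 122.8). Creld2 fell by 0.36 ± 0.09 (adjusted p = 0.00300), Hspa5 by 0.33 ± 0.08 (0.00134), and Calr by 0.23 ± 0.08 (0.0213). Dnajb11, Pdia6 and Hsp90b1 each fell by 0.22 (adjusted p = 0.00581, 0.00943 and 0.0174). Pdia4 (-0.14 ± 0.09), Sdf2l1 (-0.23 ± 0.11) and Manf (0.09 ± 0.08) were not called. In a fit of F libraries alone 2 members were called. Lost were Hspa5 (-0.25, adjusted p = 0.123), Hsp90b1, Pdia6, Dnajb11 and Calr (-0.05, 0.788). M libraries alone lost Creld2 (0.0745). Calr medians were 413 CPM in T0 and 416 in TLS F animals, and 426 and 323 in M animals. Hsp90b1 was lost without T0_1 (0.0575), and Calr without T0_3 or T0_6 (up to 0.0593). Sdf2l1 was called without TLS animal B23B (0.0492). The share of all genes called here was 35.7%, and 17.6% were called lower. Both comparisons use the same T0 libraries, so their likeness is no independent support.

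The TLS cortex libraries lay close to the control libraries for most members. Hsp90b1 ranged from 241 to 338 CPM in TLS animals (median 266), and 5 of 8 lay below every T0 library. Dnajb11 ranged from 43.3 to 60.6 CPM (median 49.4), also with 5 of 8 below every T0 library. Pdia6, which was called against T0 in TLS animals and not in controls, ranged from 87.4 to 122 CPM in T0 (median 97.6), from 74.1 to 104 in controls (median 87.0) and from 76.8 to 106 in TLS animals (median 82.5). The difference between those 2 groups was -0.04 ± 0.07, so the unlike calls do not show unlike levels. Creld2 ranged from 11.6 to 17.3 CPM in TLS animals (median 14.8), and 8 of 8 were below the T0 median, as they were for Hyou1. Manf ranged from 36.4 to 50.1 CPM in T0, from 35.7 to 51.6 in controls and from 41.0 to 56.2 in TLS animals, and the 3 ranges largely coincided. Sdf2l1 ranged from 10.5 to 18.4 CPM in T0, from 9.57 to 13.7 in controls and from 9.24 to 14.04 in TLS animals.

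Other measures moved with the cortex groups. The share of counts from the nuclear RNAs Malat1, Neat1 and Meg3 had medians of 0.546% in T0 (0.452 to 0.603), 0.497% in controls (0.214 to 0.681) and 0.288% in TLS animals (0.209 to 0.318). With this share as a covariate, chosen after seeing the data, 4 members were called for control against T0 and 0 for TLS against T0 (edgeR, BH). The share was at most 0.318% in TLS and at least 0.452% in T0 libraries. That fit can therefore hardly separate the share from the difference between these groups, and nothing is read from the calls lost for TLS against T0. For control against T0 the lost members were Calr, at -0.22 beside -0.23 without the covariate (adjusted p = 0.0625), and Creld2, at -0.19 beside -0.29 (adjusted p = 0.100). For TLS against T0 the estimates of the 7 lost members ran from -0.33 (Hsp90b1, adjusted p = 0.0711, -0.22 without the covariate) to -0.03 (Creld2, adjusted p = 0.906, -0.36 without it), with Hspa5 at -0.24 and Hyou1 at -0.26. Genes called lower in control against T0 had a median exon length of 6612 bases and those called higher 2547.5, beside 4179 over all genes and 3380 over the members (1108 to 7230). Choroid plexus markers had median sums of 78.5 CPM in T0 (6.83 to 636), 682 in controls (118 to 1233) and 680 in TLS animals (11.3 to 995), with 3 of 8 called higher in controls than in T0. Macrophage markers had median sums of 260, 279 and 368 CPM (211 to 289, 251 to 312 and 294 to 569), with 1 of 10 higher in controls and 9 of 10 higher in TLS animals than in T0. No marker of these 2 lists was at 0 in all libraries of a group. The part of these measures in the lower chaperone levels was not tested.

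In kidney 1 member was called for control against T0, where 0.312% of all genes were called and 0.175% were lower. Pdia6 ranged from 154 to 222 CPM in T0 (median 190.0), from 109 to 185 in controls (median 132) and from 124 to 232 in TLS animals (median 147). Of the 8 control libraries 6 lay below every T0 library. It fell by 0.48 ± 0.10 in controls (adjusted p = 0.0421, edgeR with BH). The call was lost in 13 of 24 fits with 1 library left out, namely each T0 library from T0_1 to T0_6, controls 5A66, 983B, 9916, A123, D215 and E329, and TLS animal B03E (adjusted p up to 0.102). It was also lost with no filter on low counts (0.0858) and without sex in the fit (0.336), and DESeq2 added Calr (0.0460). All 10 estimates were below 0 (median -0.30), and 5 had an unadjusted p below 0.05, as had 1804 of all 16005 genes tested.

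The other kidney members had lower medians in controls than in T0 and wide ranges. Calr ranged from 841 to 1345 CPM in T0 (median 1103), from 671 to 1158 in controls (median 799) and from 735 to 1184 in TLS animals (median 938). For Calr 5 of 8 controls lay below every T0 library, and the difference was -0.34 ± 0.11 (adjusted p = 0.195, edgeR with BH). Hspa5 ranged from 401 to 771 CPM in T0 (median 528), from 379 to 626 in controls (median 403) and from 288 to 736 in TLS animals (median 435), and the 3 ranges overlapped. Hsp90b1 had medians of 545, 418 and 406 CPM in T0, control and TLS animals. The differences from T0 were -0.27 ± 0.17 for Hspa5 and -0.34 ± 0.12 for Hsp90b1 in controls (adjusted p = 0.575 and 0.276). The low-abundance members spread most: Sdf2l1 ran from 10.8 to 30.7 CPM in T0, from 5.42 to 26.0 in controls and from 9.10 to 20.4 in TLS animals, and Manf from 64.9 to 126, from 51.4 to 175 and from 54.1 to 143.

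For TLS against T0 in kidney 0 of 10 were called by edgeR with BH (0.681% of all genes), 3 had an unadjusted p below 0.05, and DESeq2 called 0. Of all 16005 genes tested, 2420 had an unadjusted p below 0.05 in edgeR. Without TLS animal 47BE, which had the highest kidney level of 8 members among the TLS animals, Hsp90b1 (adjusted p = 0.0466) and Pdia6 (0.0409) were called. All 10 estimates were below 0 with and without it.

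Liver gave 0 called members for control against T0 (0.529% of all genes) and for TLS against T0 (1.34%), while 5 and 4 had an unadjusted p below 0.05 in edgeR, and DESeq2 called 0 in both. Of all 13604 genes tested, 2057 and 2021 had an unadjusted p below 0.05 in edgeR. Sdf2l1 had the lowest estimates. It ranged from 33.9 to 92.9 CPM in T0 liver (median 50.6), from 14.9 to 45.8 in controls (median 28.3) and from 9.28 to 119 in TLS animals (median 17.7). The TLS range was stretched by 1 library, since 7 of 8 TLS libraries lay below every T0 library and that of animal A5DA lay above them all. The difference from T0 was -1.02 ± 0.37 in controls and -1.10 ± 0.38 in TLS animals (adjusted p = 0.216 and 0.156, edgeR with BH).

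The abundant liver chaperones showed the same order of medians with overlapping groups. Hspa5 ranged from 404 to 1146 CPM in T0 (median 655), and its control and TLS medians were 502 and 389. Hsp90b1 ranged from 659 to 1012 CPM in T0 (median 838), from 498 to 947 in controls (median 670) and from 481 to 1022 in TLS animals (median 618). Calr ranged from 950 to 1340 CPM in T0 (median 1065), from 595 to 1268 in controls (median 870) and from 527 to 2481 in TLS animals (median 695). These 3 members had their lowest median in TLS animals, while the medians of Pdia6 (224, 135 and 140 CPM in T0, control and TLS animals) and Creld2 (52.2, 30.7 and 33.4 CPM) were lowest in controls. The estimates from T0 were -0.60 ± 0.23 for Pdia6 and -0.73 ± 0.31 for Creld2 in controls, neither of them called (adjusted p = 0.238 and 0.264, edgeR with BH). Manf was the member with the smallest liver estimate in controls, -0.20 ± 0.32, and its medians were 125, 137 and 90.7 CPM.

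TLS animal A5DA had the highest liver level of 8 members in its group, with Calr at 2481 CPM against a group median of 695. Its summed macrophage markers were also the highest of the group, 1384 CPM in liver (median 218, lowest 66.6), 1306 in kidney (median 218) and 10033 in WAT (median 1619, lowest 967), with no marker of the list at 0 in all libraries. In liver its markers of mammary and other epithelium summed to 8865 CPM (group median 351, lowest 248; 2 of 10 at 0 in all libraries of the group) and those of lymph node stroma to 28.8 CPM (median 2.86; 1 of 5 at 0), the highest of the group for both. The epithelium list holds Krt8, Krt18 and Lcn2 among others, and a sum does not show which of its genes, or which cells, raised it. The part of these marker sums in its chaperone levels was not tested. Without A5DA, TLS against T0 in liver gave 2 called members, Sdf2l1 (-1.72, adjusted p = 0.000587) and Calr (-0.67, adjusted p = 0.0297), and control against T0 gave Sdf2l1 (adjusted p = 0.0413), by edgeR with BH. TLS against control still gave 0 without it, while its Sdf2l1 estimate moved from -0.08 to -0.73 (adjusted p = 0.103) and the median over the members from -0.04 to -0.17. When only the control and T0 libraries were fitted, a choice made after seeing the data, Sdf2l1 was called as well (adjusted p = 0.0316).

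In WAT 0 members were called for control against T0 (0.161% of all genes) and for TLS against T0 (0.226%), with 8 and 6 at an unadjusted p below 0.05 in edgeR. Of all 16784 genes tested, 1953 and 2196 had an unadjusted p below 0.05. DESeq2 called 1, Calr, in the first (adjusted p = 0.0488) and 0 in the second. The median over the members was -0.62 in controls and -0.52 in TLS animals. Hyou1 had -0.78 ± 0.22 in controls (adjusted p = 0.166, edgeR with BH), with 65.2 to 270.1 CPM in T0 (median 97.4) and 62.0 to 85.6 in controls (median 70.3). The T0 group was stretched by animal T0_6, which had the highest level of all 10 members, while T0_5 had the lowest of 9.

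In WAT the T0 medians were the highest of the 3 groups for 9 members, and for Manf the 3 medians lay between 65.99 and 67.8 CPM. Hspa5 ranged from 357 to 1037 CPM in T0 (median 491), from 301 to 431 in controls (median 380) and from 285 to 524 in TLS animals (median 389). Calr ranged from 501 to 1893 CPM in T0 (median 706), from 389 to 617 in controls (median 515) and from 454 to 795 in TLS animals (median 596). Without the highest T0 library the T0 group still overlapped both others for these genes. Pdia4 had -0.59 ± 0.17 and Calr -0.76 ± 0.22 for control against T0, the former with medians of 135, 100.1 and 117 CPM in T0, control and TLS animals (adjusted p = 0.182 and 0.181, edgeR with BH).

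The WAT library of T0_6 held 5402 CPM of the 10 members together, against a group median of 2312 and a lowest value of 1684. Its summed markers of mammary and other epithelium were 6406 CPM, beside a T0 median of 194 (lowest 94.0), 38.8 to 816 in controls and 111 to 588 in TLS animals, with none of the 10 markers at 0 in all libraries of a group. Markers of epididymis and testis stood apart further, at 19180 CPM in that library against a T0 median of 0.05, at most 0.23 in controls and at most 2838 in TLS animals (47BE), with 1 of the 9 at 0 in all T0 libraries, 6 in all control libraries and 2 in all TLS libraries. Its white adipose tissue markers were the lowest of T0, 13228 CPM beside a median of 30644. Plasma cell markers summed to 992 CPM in that library, the highest of T0, to 958 to 3696 in controls and to 605 to 4347 in TLS animals. A sum does not show which cells raised it, and the part of these marker sums in the result was not tested. Without T0_6 the median over the members was -0.38 in controls and -0.21 in TLS animals, and the estimates below 0 numbered 10 and 8 of 10. None was called without it (lowest adjusted p = 0.0878, Calr in controls, edgeR with BH).

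Over all tissues 39 of 40 estimates were below 0 for control against T0 and 39 of 40 for TLS against T0, the exception being Manf in cortex both times. The same T0 libraries enter each pair, and the members moved together within libraries, so these counts are not independent observations.

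In kidney 5 members, Dnajb11, Pdia6, Calr, Creld2 and Manf, were lower in F than in M animals. Since 46.8% of all genes were called by sex there, and 24.6% were lower in F, nothing is read from the count of members. Dnajb11 ranged from 76.9 to 117 CPM in 12 F libraries (median 88.3) and from 81.5 to 147 in 12 M libraries (median 122), a difference of -0.37 ± 0.08 (adjusted p = 0.000598, edgeR with BH). Pdia6 ranged from 109 to 201 CPM in F (median 132) and from 142 to 232 in M (median 179), a difference of -0.37 ± 0.08 (adjusted p = 0.000944). The ranges of the sexes overlapped for both. Calr differed by -0.32 ± 0.09 (adjusted p = 0.00513), Creld2 by -0.52 ± 0.16 (0.00977) and Manf by -0.47 ± 0.18 (0.0368).

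Manf was lost with no filter on low counts (adjusted p = 0.0922) and in 13 of 24 fits with 1 library left out (up to 0.0805, edgeR with BH). These were TLS animals 47BE, B03E, B4B9, B51B, DDF3 and E46E, controls 983B, 9916, 9BA4, A123 and E329, and T0_2 and T0_4. The kidney estimates of Hspa5, Hsp90b1, Pdia4, Sdf2l1 and Hyou1 lay between -0.09 and 0.10 and were not called. Of the other ER genes fixed by list, 15 of 36 further folding proteins were lower in F kidneys and 5 higher, with P4hb, the main disulfide isomerase, at -0.50 ± 0.08 (adjusted p = 2.87e-05) and Pdia3 at -0.31 ± 0.07 (0.0012).

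By edgeR with BH, 0 members differed by sex in cortex (0.126% of all genes), liver (6.4%) and WAT (11.8%), with 5, 4 and 0 at an unadjusted p below 0.05. Among all genes tested, 1861 of 16609, 2405 of 13604 and 4123 of 16784 had such a p. DESeq2 called Hspa5 in cortex (adjusted p = 0.0434) and 0 in liver and WAT. In cortex all 10 estimates of F against M were above 0 (Hspa5 0.25 ± 0.06, adjusted p = 0.145), and in liver all 10 were below 0 (median -0.44). Without TLS animal A5DA the liver median was -0.24 and 8 of 10 were below 0. Sdf2l1 was called in liver without T0_3 (adjusted p = 0.0319), and Calr in WAT without T0_6 (0.31, adjusted p = 0.0251).

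**Figure D4:**
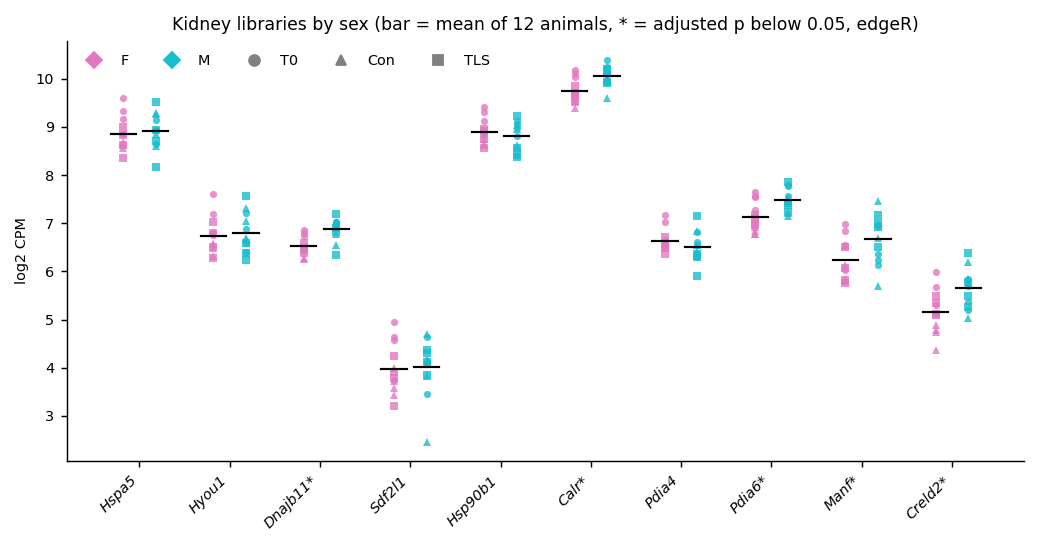
Log2 CPM of each gene in kidney, F libraries beside M libraries (12 each), with symbols for the group; an asterisk marks the 5 genes called by sex. The F points of Dnajb11, Pdia6, Calr, Creld2 and Manf lie lower, with overlapping ranges.

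The TLS difference did not differ between the sexes for any member by edgeR with BH, in cortex (5.08% of all genes), kidney (0%), liver (0.00735%) or WAT (0%). Only 1 member had an unadjusted p below 0.05, Hyou1 in liver (-1.07 ± 0.49), where 840 of all 13604 genes tested did, and DESeq2 called 0 in each tissue. The change from T0 to control was also compared between the sexes, a test added after the values had been seen. It called 0 of 10 members by edgeR with BH in cortex (3.26% of all genes), kidney (0%), liver (0%) and WAT (0%), with 1, 4, 0 and 1 at an unadjusted p below 0.05, and DESeq2 was not run for it. Among all genes tested, 2990 of 16609, 1569 of 16005, 310 of 13604 and 937 of 16784 had such a p. In kidney all 10 estimates of this difference were below 0 (median -0.56), meaning a larger fall in F, and 4 had an unadjusted p below 0.05, with Creld2 at -1.06 ± 0.34 (adjusted p = 0.348). Creld2 had medians of 45.01 CPM in T0 and 26.9 in control F kidneys, and of 46.3 and 55.0 in M kidneys. When only F libraries were fitted 8 members were called for control against T0 in kidney, and when only M libraries were fitted 0 were. The test of the difference did not bear out this contrast between separate fits at its threshold. The shares of all genes called in those fits are not given here, so nothing is read from these counts.

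From animal to animal the 10 genes varied together. After the mean of each group and sex was removed from log2 CPM, the median Pearson r over the 45 pairs of members was 0.59 in cortex, 0.89 in WAT, 0.67 in kidney and 0.63 in liver, against medians near 0 over all pairs of genes in each tissue. These are descriptions over 24 libraries (23 in WAT), which share library preparation and scaling. Without the library in which the members deviated most (T0_3 in cortex, TLS 47BE in kidney, TLS A5DA in liver and T0_6 in WAT) the medians were 0.50, 0.57, 0.59 and 0.77. In cortex Hspa5 was closest to the rest (median r 0.74) and the least close was Manf (0.32), which was also the member with the estimate nearest 0 for control against T0. Sdf2l1 was farthest in kidney (0.40) and Hyou1 in liver (0.45). The closest pairs were Pdia6 and Hspa5 in cortex (0.85), Hyou1 and Pdia4 in kidney (0.94), Dnajb11 and Pdia6 in liver (0.92), and Calr and Pdia6 in WAT (0.97).

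**Figure D5:**
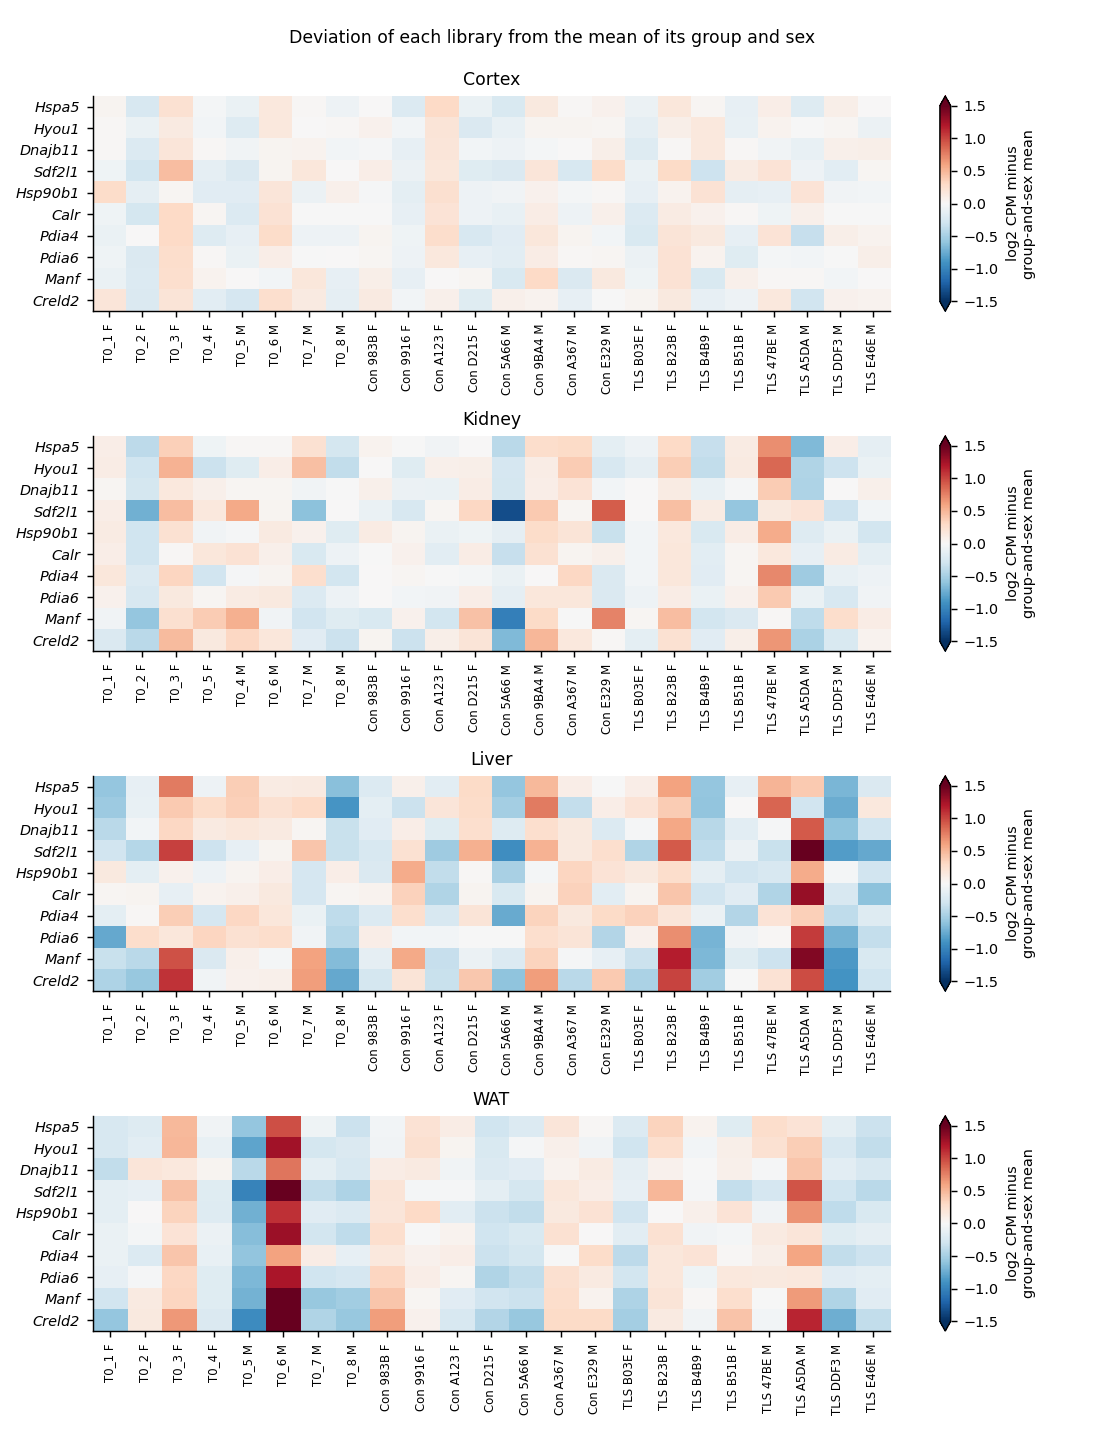
Heat map of log2 CPM minus the mean of the library's group and sex, for the 10 genes (rows) in each library (columns), by tissue. Columns are mostly of one colour, and T0_6 in WAT, A5DA in liver and 47BE in kidney stand out as high.

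Genes outside the 10 whose residuals were most like the members' mean are named by their 5 highest r in each tissue. In cortex they were Cers1 (r = 0.78), Thop1, Bscl2, Ino80b and Pdia3, and in kidney Stip1 (0.89), Ahsa2, Surf4, Tmem109 and P4ha1. In liver they were Ube2n (0.87), Pid1, Morf4l2, Il13ra1 and Cpb2, and in WAT Sec61a1 (0.97), Pdia3, Mogs, Rpn1 and Erf. Pdia3 was among the 11 most alike in all 4 tissues (r from 0.73 in cortex and kidney to 0.96 in WAT). These rankings include the library in which the members deviated most in each tissue, such as T0_6 in WAT, and were not made without it. Of the WAT genes 4 belong to ER lists. The share of all genes on those lists is not given here, so nothing is read from that count. Sec61a1 forms the translocation channel, Pdia3 is a disulfide isomerase, Mogs trims glycans and Rpn1 is part of the oligosaccharyltransferase.

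The rest of the ER machinery had calls in both directions in cortex, where 21.2% of all genes were called for control against T0. Of 36 other ER folding proteins 6 were higher and 5 lower in controls than in T0 (edgeR, BH), with a median of -0.02. Among those always looked up, Pdia3 fell by 0.19 ± 0.06 (adjusted p = 0.0242), Dnajb9, a J-domain protein, rose by 0.20 ± 0.06 (0.0205), and P4hb (0.04 ± 0.06) and Canx (-0.06 ± 0.05) were not called. Of the 18 sensors and transcription factors of the unfolded protein response 2 were lower and 0 higher: Atf6 fell by 0.47 ± 0.11 (adjusted p = 0.0033), and Nfya, a subunit of the factor that binds CCAAT and named after its values were seen, by 0.31. Xbp1 (-0.13 ± 0.06), Ern1 (-0.20 ± 0.10), Eif2ak3 (-0.18 ± 0.08) and Atf4 (-0.03 ± 0.06) were not called. Ddit3 (CHOP), the factor tied to prolonged stress, had 0.17 ± 0.10 in cortex and was not called in any of the 3 group comparisons of any tissue.

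Of the 23 genes of ER-associated degradation 3 were higher and 2 lower in control than in T0 cortex, of 24 translocation genes 7 and 1, of 27 N-glycosylation genes 4 and 1, of 27 ER to Golgi genes 4 and 4, and of 27 targets of ATF4 and CHOP 3 and 1. The cytosolic heat shock proteins, which fold proteins outside the ER, were lower in 9 of 24 and higher in 2, with Hsph1 falling by 0.54 (adjusted p = 1.8e-06) and Hspa1b by 0.45 (edgeR with BH). The cold-inducible RNA-binding genes Cirbp and Rbm3 rose by 0.32 and 0.46. No test compared these lists with the members.

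For TLS against control in cortex, where no member was called, 10 genes of these lists were. In that comparison 5.41% of all genes tested were called, and nothing is read from the count of listed genes. Atf4, the transcription factor translated when Eif2ak3 is active, rose by 0.21 ± 0.06 (adjusted p = 0.0286, edgeR with BH). Of the 27 listed targets of ATF4 and CHOP, Psat1 (0.28 ± 0.07), Atf5 (0.23 ± 0.07) and Mthfd2 (0.37 ± 0.11) rose, and Nupr1 (-0.40 ± 0.12) and Bbc3 (-0.39 ± 0.11) fell. Psat1 and Mthfd2 serve serine and one-carbon metabolism. Sec61a2 (-0.29 ± 0.07), Hspa2 (-0.33 ± 0.09), Cirbp (-0.34 ± 0.09) and Rbm3 (-0.47 ± 0.13) fell, while 0 of 36 other ER folding proteins, 0 of 23 degradation genes and 0 of 27 N-glycosylation genes were called. Mthfd2 falls outside the naming rule and is named after its values were seen. In liver the only such gene was Cebpb (0.80 ± 0.20, adjusted p = 0.0346), and in kidney and WAT there was none.

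For TLS against T0 in cortex, where 35.7% of all genes were called, 9 of the 36 other folding proteins were higher and 10 lower. Dnajb9 rose by 0.38 ± 0.06 (adjusted p = 2.8e-05, edgeR with BH). Herpud1, a degradation factor and a common marker of ER stress, rose by 0.21 ± 0.07 (adjusted p = 0.0219), Xbp1 fell by 0.17 ± 0.06 (0.0292), Atf6 by 0.29 ± 0.11 (0.0344), and Atf4 rose by 0.18 ± 0.06 (0.0135). Outside the cortex none of Xbp1, Atf6, Ern1, Eif2ak3, Atf4, Dnajb9, Herpud1, Pdia3, P4hb and Canx was called in any of the 3 group comparisons.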

How the data were processed

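RNA from 95 samples of 4 tissues was measured by bulk polyadenylated RNA sequencing. Reads were aligned with STAR 2.7.10 to mm10 (GRCm38), and DESeq2 and DESeq are named without a role, per the submitters' processing notes. The authors deposited raw counts per gene symbol (55401 rows, 55291 symbols) and the ages in the header lines. The gene annotation and strand setting of the counting are not given in these sources. Groups, tissue, sex and animal come from the labels. Where rows shared a symbol, the row with the larger total kept it.

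Each tissue was fitted separately with edgeR 4.0.16 in R 4.3.3 (TMM scaling, filterByExpr with a minimum count of 10, robust quasi-likelihood F test), with all 3 groups and sex in the model and Benjamini-Hochberg adjustment over all genes tested (cortex 16609, kidney 16005, liver 13604, WAT 16784). Called means an adjusted p below 0.05, and each error is the SE of a log2 difference. Tissues were compared in 1 joint fit of 20888 genes. The same animals gave the tissues, so a second joint fit had the animal as a block. Deviations of 135 pairs of libraries from the same animal had a mean correlation of 0.033 (-0.166 to 0.419), against -0.0098 for 405 pairs of other animals. In kidney T0_4 is labelled M and T0_5 F, the opposite of the other tissues, and both fit the sex-linked genes, so these 2 codes may not mark the same animals there. Log2 CPM used a prior count of 2. Exon lengths came from GENCODE vM21 (GRCm38) and promoter windows from RefSeq (GRCm38.p6). The fits were tested on simulated data.

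Alternatives were DESeq2 1.42.0, RLE size factors, no filter on low counts, a filter of 1 CPM in 8 libraries, sex left out or crossed with treatment, the share of nuclear RNAs as a covariate, only the 2 groups compared, F or M libraries only, and each library left out in turn. For the comparisons with T0, the covariate, sample and sex alternatives were added after seeing the data. The members and gene lists were chosen with earlier results of these data known. All 10 members are named, with up to 4 genes per list and tissue by the smallest p for TLS against control, the 5 genes most like the members per tissue, and 11 genes that are always looked up. Protein sequences were not used here. The precision of a value is limited by 7 or 8 animals per group and, for the least abundant member, Sdf2l1, by depth, and intervals cover the spread between animals.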

Additional observations from a re-analysis of the deposited data

Results flagged for a closer look

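Single libraries stood apart from their group in 9 of 120 member, tissue and group combinations by Dixon's gap test on log2 CPM, where chance gives about 1 in 20. In WAT the T0 library T0_6 was the highest for Pdia6 (653 CPM), Calr (1893 CPM), Dnajb11 (142 CPM), Sdf2l1 (126 CPM) and Manf (312 CPM). In liver the TLS library A5DA was the highest for Calr (2481 CPM) and Sdf2l1 (119 CPM). The control liver library 5A66 was the lowest for Pdia4, at 66.4 CPM. The TLS cortex library A5DA was the lowest for Creld2, at 11.6 CPM. Since members move together within a library, these are fewer than 9 independent events.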

How the results depend on the processing

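For TLS against control the count of members called was 0 in each tissue under every alternative run, as was the tissue difference of that effect. The counts called moved by over 1.5 times in these cases. For control against T0 they were 3 in cortex with F libraries only, in kidney 2 with DESeq2, 0 with no filter, 0 without the sex covariate, 8 with F libraries only and 0 with M libraries only, 1 in liver with only the 2 groups compared, and 1 in WAT with DESeq2. For TLS against T0 they were 0 in cortex with the share of nuclear RNAs as covariate, 2 in cortex with F libraries only and 1 in kidney with F libraries only. For F against M, DESeq2 gave 1 in cortex. The causes were not tested, and the shares of all genes called in these fits are not given here. With 1 library left out, the counts ran from 4 to 7 in cortex and from 0 to 1 in kidney and in liver for control against T0, and from 6 to 8 in cortex and from 0 to 2 in kidney and in liver for TLS against T0. For F against M they ran from 4 to 5 in kidney and from 0 to 1 in liver and in WAT, and elsewhere they stayed at 0. With the animal as a replicate block, 55 of 60 tissue differences were called in place of 54, the added one being Sdf2l1 between cortex and WAT, and the block changed no other call. RLE factors gave 50, and TLS and control libraries alone gave 52. The median r of the members in WAT was 0.77 without T0_6 in place of 0.89. Of 5200 member estimates recomputed, 5106 stayed on their side of the threshold with their direction where called, 27 became called and 67 lost the call, and none that was called reversed. Among the 4571 called in neither fit, 178 had the other sign. The levels scaled within a tissue moved by at most 19.2% without TMM, and 1 of 120, Calr in T0 liver, by more than its SD. The levels compared across tissues were not part of this check. Hspa5 in control liver had a median of 502 CPM scaled within the tissue and 874 scaled over all tissues. Animals per group set the precision, which was lowest in liver and WAT.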
